A study of Mus musculus with 15 samples.

Results

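Hearts of mice infused with angiotensin II (AngII) were compared with hearts of control mice. The comparison took the 5 libraries labelled AngII and the 5 labelled Control, 10 of the 15 libraries of the series. The remaining 5 libraries, from mice given AngII and QDG, entered the statistical fit to share its estimate of the spread. They also took part in the choice of transcripts, which had to be listed in all 15 files, and of genes tested. Gene lengths and the alternative scalings and adjustments for length used them as well. All animals were male C57BL/6 mice, and the design text gives 5 mice for each group. The labels do not state the dose, route or duration of AngII, or what the controls received. RNA of whole heart tissue was depleted of ribosomal RNA and sequenced, so that coding and noncoding transcripts of all cardiac cell types were read together. Values are FPKM (fragments normalised to transcript length and to the mapped fragments of the library), summed over the Ensembl transcripts of a gene. Of 12380 genes summed, 12238 had at least 0.5 FPKM in at least 5 libraries and were tested.

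AngII is the effector peptide of the renin-angiotensin system. It binds the AT1 receptor, which couples through Gq proteins to phospholipase C, protein kinase C and calcium release, and it raises blood pressure by constricting arteries. In the heart this pathway and the pressure load are known to activate MAP kinases, calcineurin and the class II histone deacetylase and MEF2 axis in cardiomyocytes, and TGF-beta signalling and matrix deposition in fibroblasts. Stretch of the muscle is read at the Z-disc and at the intercalated disc, the junction that couples neighbouring cardiomyocytes, and part of it reaches the nucleus through the coactivators YAP and TAZ with TEAD factors and through SRF with MRTF.

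The libraries of the groups differed in more than single genes. The balance of short against long transcripts was taken as the mean log2(FPKM + 1) of 2123 protein-coding transcripts under 1000 nt minus that of 5877 of at least 3000 nt. It was 1.29 ± 0.196 (SD, n = 5) in Control and 0.914 ± 0.0731 (n = 5) in AngII, and the libraries of the groups did not overlap (exact two-sided permutation test, p = 0.00794, the smallest that 5 against 5 libraries can give, adjusted p = 0.0198 over 5 measures). The share of transcripts listed at 0 was 11.4% ± 5.26 in Control and 4.80% ± 0.876 in AngII, again without overlap and with the same p. Control 3 (balance 1.51) and Control 5 (balance 1.47, with 20% of transcripts at 0) stood farthest from the AngII libraries. Without these libraries the differences were -0.244 and -3.56 percentage points, and the groups still did not overlap in either measure. The exact permutation p of 0.0357 for each (adjusted p = 0.0893) was the smallest that the remaining libraries can give. The adjusted p therefore cannot show that the imbalance was gone. Depth did not separate the groups, with 56.6 to 78.3 over the 10 libraries in units of 1000000 fragments (exact p = 0.818). Because the groups do not overlap in the length balance, AngII and the balance cannot be told apart in these libraries, and results are therefore also given without Control 3 and Control 5, after removal of the length trend from each library, and with the balance as a covariate.

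**Figure D1:**
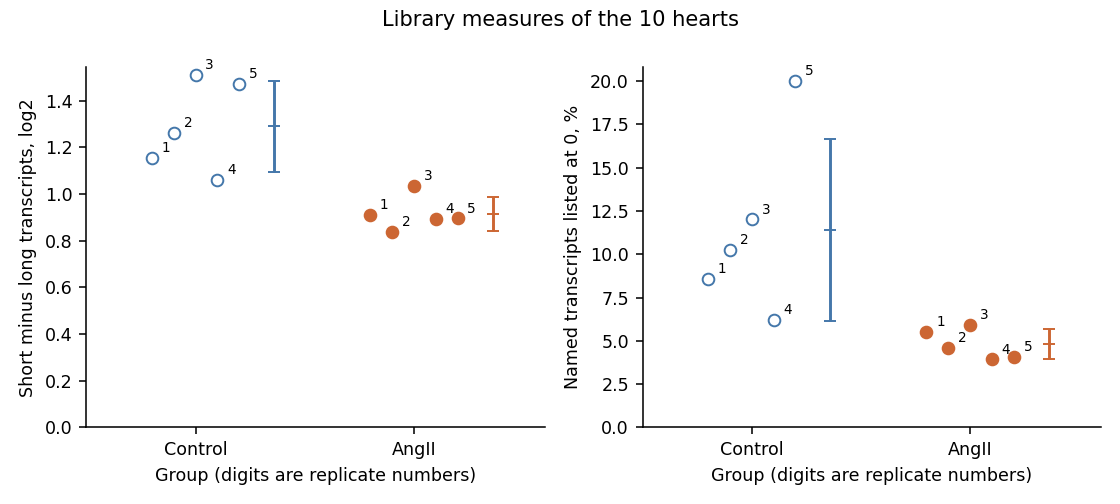
Balance of short against long transcripts (left, log2 units) and share of transcripts listed at 0 (right, percent) in the 5 Control and 5 AngII libraries; points are libraries with their replicate numbers, and the bars beside them are mean ± SD. All Control libraries lie above all AngII libraries in both panels, with Control 3 (1.51) and Control 5 (1.47 and 20%) far up.

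At a Benjamini-Hochberg adjusted p under 0.05, 1658 genes (13.5% of those tested) passed, of which 1483 (12.1%) were higher and 175 (1.43%) lower in AngII. The libraries of the groups did not overlap for 1250 genes higher (10.2%) and 122 genes lower (0.997%) in AngII. The median log2 difference of all tested genes was 0.21, and it followed transcript length. Genes under 500 nt had a median of -0.15 and 3.15% of them rose, whereas genes of 3000 to 4000 nt had a median of 0.32 and 17.9% rose, and genes of at least 6000 nt had a median of 0.37 and 26.95% rose. Of the 175 genes that fell, 137 were under 1000 nt and 72 were annotated pseudogenes. The counts shrank where the length balance was treated differently. Without Control 3 and Control 5, 182 genes passed (169 higher, 13 lower). After removal of the length trend from each library, 325 genes passed (198 higher, 127 lower). With the balance as a covariate, 2 genes passed (Sptb and Gtf3c4). Quantile normalization, which gives each library the same distribution, moved the median to -0.02 and the split to 407 higher and 444 lower, and median scaling moved it to -0.06 and the split to 358 higher and 813 lower.

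**Figure D2:**
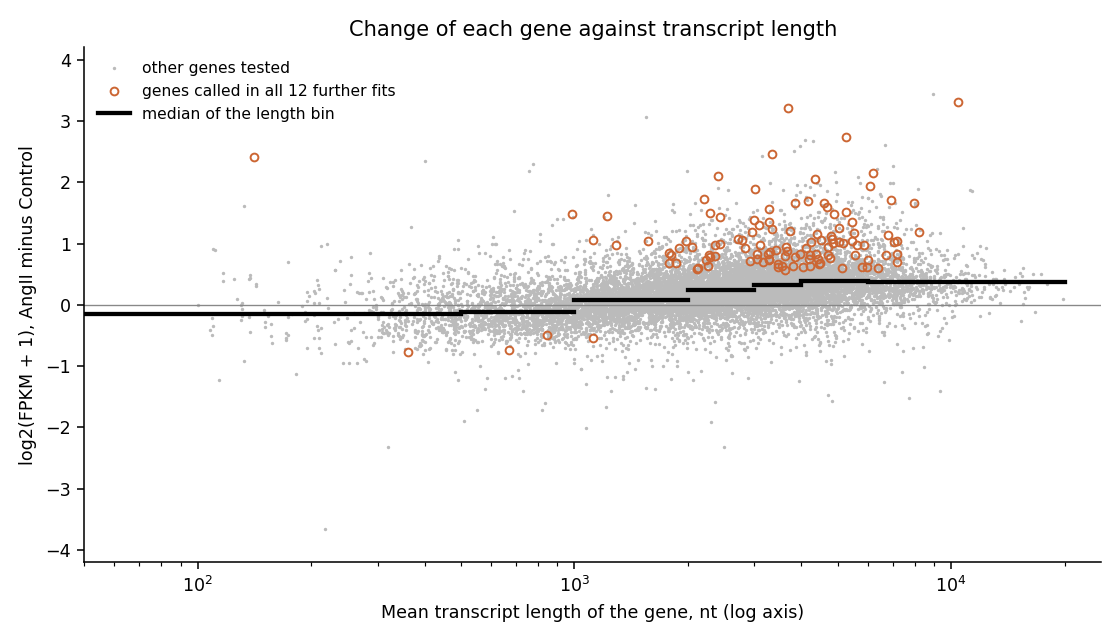
Log2 difference AngII minus Control of each tested gene (vertical axis) against its transcript length in nt (horizontal log axis). Circles are the 115 genes that passed in each of the 12 further fits described next, grey points are all other genes tested, and bars are the medians of length bins, which climb from -0.15 under 500 nt to 0.37 at 6000 nt and more.

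The description below leads with 115 genes (0.94% of those tested) that passed in the fit of all libraries and in each of 12 further fits: the 10 libraries alone, without Control 3 and Control 5 together, and without each of the 10 libraries in turn. Below, "in all fits" refers to these fits and not to those with the covariate or with the length trend removed. Of these, 111 were higher and 4 lower in AngII, and 108 were protein coding. Their median transcript length was 3671 nt and their median log2 difference 0.94. All 115 kept their direction with the length balance as a covariate, where their median was 0.64, and 75 also passed with the length trend removed. Values are listed for replicates 1 to 5 in order. Log2 differences are of log2(FPKM + 1), given ± SE with the limma adjusted p, and understate the change of genes with low FPKM.

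Among receptors and secreted factors, Tnfrsf12a, the Fn14 receptor for the cytokine TWEAK, had 42.7, 62.1, 71.5, 46.9 and 42.3 FPKM in Control and 117, 135, 122, 167 and 211 in AngII. Each AngII library exceeded each Control library, and AngII 5 was the highest of all. The means were 53.1 ± 13 (SD, n = 5) and 150.2 ± 39.2 FPKM, a log2 difference of 1.48 ± 0.19 (adjusted p = 0.00168). Its transcript is short (984 nt), against the length trend, and the difference was 1.52 with that trend removed (adjusted p = 0.000456) and 1.67 ± 0.32 with the balance as a covariate.

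Ccn2, a matricellular protein induced by YAP and TGF-beta, spread widely within AngII, with 74.9, 45.9, 35.3, 86.3 and 133 FPKM, against 16.6, 16.7, 14.3, 16.4 and 11.7 in Control. AngII 5 was the highest and AngII 3 the lowest AngII library, and none reached down to the Control libraries. On the log2 scale Ccn2 differed by 2.10 ± 0.35 (adjusted p = 0.00707), with an adjusted p of 0.0480 without Control 3 and Control 5. Adamts1, a secreted metalloprotease that cleaves proteoglycans, lay at 1.73 to 4.22 FPKM in Control and 7.35 to 13.9 in AngII, a log2 difference of 1.48 ± 0.20 (adjusted p = 0.00234). Timp3, an inhibitor of such metalloproteases that is bound to the matrix, lay at 20.9 to 28.3 and 40.6 to 54.3 FPKM, a log2 difference of 0.94 ± 0.15 (adjusted p = 0.00635), and missed the threshold with the length trend removed (adjusted p = 0.0541). Adam10, a membrane sheddase, had 0.511, 0.263, 2.54, 2.84 and 0.212 FPKM in Control and 4.92, 5.59, 4.28, 5.24 and 6.87 in AngII. All Control libraries were below all AngII libraries, but the Control values fell into a pair above 2 FPKM and 3 below 1 FPKM. Vegfa, the main angiogenic growth factor, rose from 24.9 ± 9.33 to 50 ± 3.13 FPKM (SD, n = 5), and its log2 difference of 1.06 ± 0.22 (adjusted p = 0.0143) became 0.21 ± 0.22 with the balance as a covariate. Stc1, a secreted glycoprotein hormone, rose from 0.581 ± 0.140 to 1.66 ± 0.383 FPKM, and S1pr1, the endothelial receptor for sphingosine 1-phosphate, from 16.8 ± 1.77 to 29.4 ± 5.71 FPKM.

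**Figure D3:**
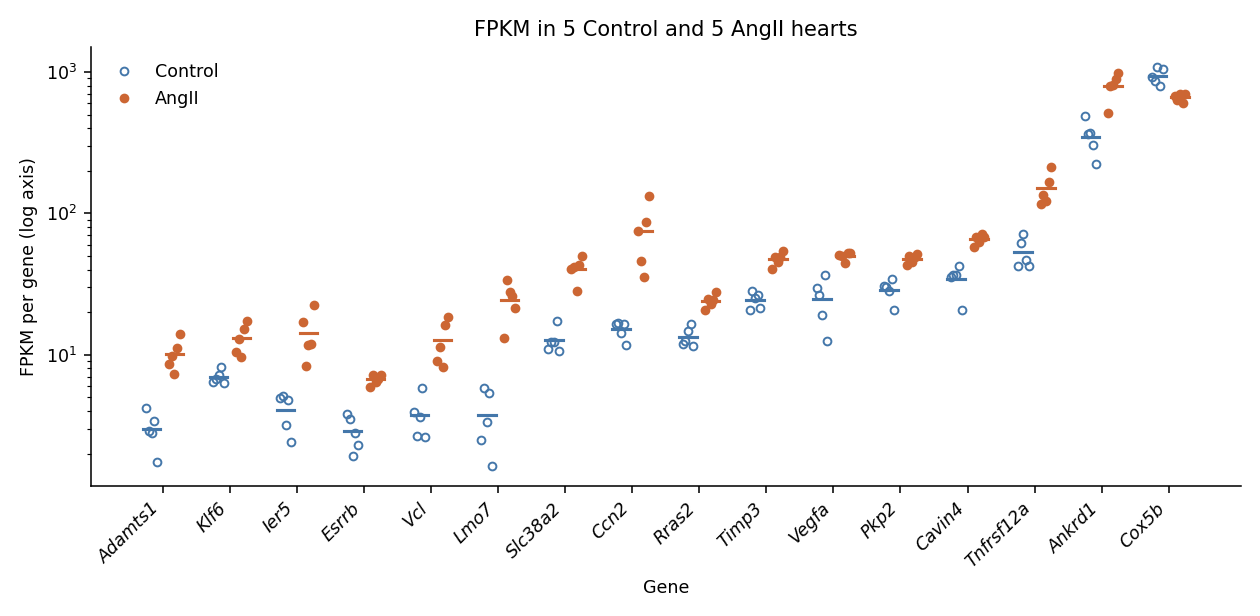
FPKM (log axis) of named genes in the 5 Control (open) and 5 AngII (filled) libraries; points are libraries and lines are group means. The groups do not overlap in any gene drawn: Cox5b is lower and each other gene is higher in AngII.

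The promoters of 3 of the genes that rose are shown because Vcl and Ankrd1 are known to respond to stretch, whose nuclear factors are TEAD and SRF, and Tnfrsf12a rose against the length trend. The 250 bases before the annotated start were taken from RefSeq on GRCm38.p6, printed 5′ to 3′ on the strand of the gene, with matches of CATTCC (the TEAD motif, read as GGAATG on the other strand) and of the CArG box bound by SRF (CC, 6 bases of A or T, GG) in capitals. The motif TGANTCA, bound by AP-1, was searched as well.
Vcl, chr14:20929148-20929397, plus strand: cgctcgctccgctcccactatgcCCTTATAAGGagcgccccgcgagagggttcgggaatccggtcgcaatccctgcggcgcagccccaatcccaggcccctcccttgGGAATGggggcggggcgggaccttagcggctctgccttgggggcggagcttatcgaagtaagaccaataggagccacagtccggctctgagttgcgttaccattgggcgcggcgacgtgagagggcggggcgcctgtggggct
Ankrd1, chr19:36119845-36120094, minus strand: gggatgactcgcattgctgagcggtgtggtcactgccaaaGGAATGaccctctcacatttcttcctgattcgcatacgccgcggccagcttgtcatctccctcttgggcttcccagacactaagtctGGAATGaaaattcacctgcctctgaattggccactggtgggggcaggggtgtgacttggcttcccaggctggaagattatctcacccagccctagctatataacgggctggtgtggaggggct
Tnfrsf12a, chr17:23677450-23677699, minus strand: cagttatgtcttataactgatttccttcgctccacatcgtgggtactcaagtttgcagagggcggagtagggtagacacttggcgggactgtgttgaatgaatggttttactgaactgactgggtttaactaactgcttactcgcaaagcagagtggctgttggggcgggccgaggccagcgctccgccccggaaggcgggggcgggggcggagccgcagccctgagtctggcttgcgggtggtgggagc
Counting back from the start, with the last base before it as -1, the Vcl window held a CArG box from -227 and a CATTCC match from -143. The Ankrd1 window held CATTCC matches from -210 and -123, and the Tnfrsf12a window held no match of the motifs searched. CATTCC occurred on either strand in 12.6% of 27025 mouse promoters of this length and in 10.52% of 8842 promoters of tested genes. Of the 115 genes that passed in all fits, 82 had a promoter in the table, and 7 of these (8.54%) held CATTCC, 3 (3.66%) a CArG box and 0 TGANTCA. The shares among tested genes were 1.17% for the CArG box and 4.06% for TGANTCA.

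Junction and cytoskeletal scaffolds formed the second group. Tjp1 (ZO-1, ENSMUSG00000030516), which organizes the membrane around gap junctions of the intercalated disc, had 0.479, 0.194, 0.805, 0.562 and 0 FPKM in Control and 5.10, 5.88, 4.43, 4.95 and 5.47 in AngII. The AngII libraries lay close together and far above every Control library, and Control 5 was at 0. The log2 difference of Tjp1 was 2.16 ± 0.18 (adjusted p = 2.07e-05), and it passed without Control 3 and Control 5 (adjusted p = 0.000122) and with the length trend removed (1.76, adjusted p = 4.15e-05). Vcl (ENSMUSG00000021823, chr14:20929398-21033676 on GRCm38), vinculin, which ties actin to cadherins and integrins, had 3.96, 2.64, 3.64, 5.79 and 2.61 FPKM in Control and 9.02, 11.3, 8.22, 16.1 and 18.5 in AngII. AngII 4 and AngII 5 were the highest, and AngII 3, the lowest of its group, still exceeded Control 4. Vcl differed by 1.51 ± 0.25 (adjusted p = 0.00659) on the log2 scale, and by 0.84 ± 0.35 with the balance as a covariate. Pkp2 (ENSMUSG00000041957), plakophilin 2 of the desmosome, rose from 28.9 ± 4.94 to 47.7 ± 3.48 FPKM (SD, n = 5), a log2 difference of 0.72 ± 0.12 (adjusted p = 0.00659). Ctnnd1, the cadherin partner p120-catenin, rose from 4.96 ± 1.65 to 10.8 ± 2.13 FPKM.

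Lmo7, a LIM domain protein of cell junctions, had 2.49, 5.82, 3.33, 5.33 and 1.64 FPKM in Control and 13.2, 33.9, 27.8, 25.9 and 21.4 in AngII. The increase came with a change in the transcripts read, as Lmo7 transcript ENSMUST00000159597 was at or below 0.0532 FPKM in all Control libraries and at 1.14 to 19.4 FPKM in AngII. Slmap, a tail-anchored membrane protein of the sarcolemma, had 0.0404, 6.62, 0.722, 0.109 and 0.146 FPKM in Control, where Control 2 stood apart, and 12, 16.5, 15, 15.7 and 18.3 in AngII. The groups did not overlap, and the log2 difference of Slmap was 3.21 ± 0.50 (adjusted p = 0.00622). Cavin4, a caveolar coat protein of muscle, had 35.7, 36.7, 36.7, 42.4 and 20.9 FPKM in Control and 57.7, 67.7, 62.6, 71.0 and 67.9 in AngII, a log2 difference of 0.94 ± 0.16 (adjusted p = 0.00757) that also passed with the length trend removed (0.75, adjusted p = 0.00520). Jcad, an endothelial junction protein that acts on the Hippo kinase LATS2, rose from 4.33 ± 0.545 to 10.7 ± 1.77 FPKM (log2 difference 1.13 ± 0.16, adjusted p = 0.00327). Actin-binding members were Pls3 (plastin 3), which rose from 7.22 ± 1.49 to 15.1 ± 2.95 FPKM, and Tes (testin), which was at 0 in Control 1 and Control 5, at most 0.879 FPKM in the other Control libraries and at 1.54 to 2.36 in AngII. Clic5, a chloride intracellular channel protein linked to actin, rose from 21 ± 3.53 to 42.3 ± 7.04 FPKM. In this group the AngII libraries lay above the Control libraries for each gene named, without overlap. The genes were chosen from the set that passed in all fits, where 109 of the 111 higher genes did not overlap. The lack of overlap is therefore not particular to junction genes.

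Regulators of transcription and chromatin formed the third group. Hdac9 (ENSMUSG00000004698, chr12:34047580-34917095), a class IIa histone deacetylase known to repress MEF2 in the heart, had 0.0242, 0.0239, 0, 0.127 and 0 FPKM in Control and 2.77, 3.38, 1.55, 1.52 and 2.52 in AngII. Control 3 and Control 5 were at 0 and no Control library exceeded 0.127 FPKM, whereas all AngII libraries were above 1.5 FPKM. On the log2 scale Hdac9 differed by 1.66 ± 0.16 (adjusted p = 0.000110), and by 1.41 ± 0.25 with the balance as a covariate. Arnt, the HIF-1 beta subunit that pairs with hypoxia-inducible factors, had 0.461, 1.03, 0.458, 0.746 and 0.124 FPKM in Control and 3.66, 3.28, 2.82, 2.80 and 2.17 in AngII (log2 difference 1.35 ± 0.18, adjusted p = 0.00244). Esrrb, an orphan nuclear receptor of the estrogen-related family, had 3.81, 3.53, 1.91, 2.80 and 2.28 and 5.92, 7.21, 6.43, 6.75 and 7.24 FPKM, a log2 difference of 1.02 ± 0.14 (adjusted p = 0.00327). Both were higher in each AngII library than in any Control library. Klf10, a zinc finger gene induced by TGF-beta, had 1.40, 1.15, 1.10, 1.49 and 0.947 FPKM in Control and 3.27, 2.93, 3.11, 2.09 and 3.30 in AngII (log2 difference 0.83 ± 0.13, adjusted p = 0.00659). Ier5, an immediate early gene that acts on heat shock factor, spread more, at 8.33 to 22.4 FPKM in AngII against 2.41 to 5.07 in Control, with AngII 5 and AngII 1 highest (log2 difference 1.56 ± 0.26, adjusted p = 0.00723). Klf6 rose by 0.81 ± 0.15 and Top1, DNA topoisomerase I, from 3.78 ± 0.477 to 7.21 ± 1.07 FPKM. Smarcc1, a core subunit of the BAF chromatin remodeller, rose by 1.16 ± 0.17 over the transcripts listed in all files and by 0.58 over all its named transcripts (adjusted p = 0.0305).

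Other genes that passed in all fits act in transport, signalling and metabolism. Slc38a2 (ENSMUSG00000022462, chr15:96687392-96699730), the amino acid transporter SNAT2, had 11.1, 12.4, 12.3, 17.4 and 10.6 FPKM in Control and 40.4, 41.5, 28.1, 42.8 and 50.1 in AngII. Control 4 was the highest Control library and still below AngII 3, the lowest AngII library. The log2 difference of Slc38a2 was 1.59 ± 0.16 (adjusted p = 0.000132), and the adjusted p was 0.00481 without Control 3 and Control 5 and 0.000392 with the length trend removed. Slc16a1, the lactate and pyruvate transporter MCT1, rose from 28.2 ± 2.77 to 48.1 ± 6.99 FPKM (SD, n = 5). Ppp1r3c, which targets protein phosphatase 1 to glycogen, had 17, 21.4, 24.6, 30.1 and 12.8 FPKM in Control and 44.8, 43.6, 37.6, 47.6 and 46.7 in AngII, a log2 difference of 1.07 ± 0.18 (adjusted p = 0.00707). Kcnj12, the inward rectifier channel Kir2.2, had 2.59, 2.68, 1.83, 2.89 and 0 FPKM in Control, where Control 5 was at 0, and 7.57, 7.99, 5.17, 6.88 and 5.81 in AngII. Its adjusted p was 0.0132 with and 0.00796 without Control 3 and Control 5. Asph, which encodes the calcium store proteins junctin and junctate along with an aspartyl hydroxylase, rose from 52.2 ± 8.49 to 80.8 ± 6.87 FPKM.

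The genes described next encode signal transducers and also passed in all fits. Rras2, a Ras family GTPase, had 11.9, 12.5, 14.8, 16.5 and 11.4 FPKM in Control and 20.9, 24.9, 23, 24.2 and 27.6 in AngII, a log2 difference of 0.81 ± 0.12 (adjusted p = 0.00557). Csnk1a1, casein kinase 1 alpha, rose from 16.2 ± 3.17 to 30.6 ± 2.83 FPKM, and Rab5a, the GTPase of early endosomes, from 6.31 ± 0.839 to 13.5 ± 2.54 FPKM. Crkl, an SH2 and SH3 adaptor, rose from 1.04 ± 0.270 to 3.87 ± 0.737 FPKM. Dusp8, a phosphatase of JNK and p38 kinases, rose from 3.97 ± 1.46 to 9.73 ± 2.25 FPKM (log2 difference 1.13 ± 0.19, adjusted p = 0.00742). Prkar1a, the regulatory subunit of protein kinase A, rose from 69.0 ± 13.2 to 114 ± 15.4 FPKM, but its log2 difference of 0.73 became 0.20 ± 0.14 with the balance as a covariate. Pdpk1, the kinase that activates AKT, changed likewise from 0.82 ± 0.15 to 0.30 ± 0.16, and the LATS-binding protein Limd1 from 1.24 ± 0.26 to 0.26 ± 0.27. For these 3 genes the difference was smaller with the length balance in the fit, and the part of the balance in the rise was not tested.

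**Figure D4:**
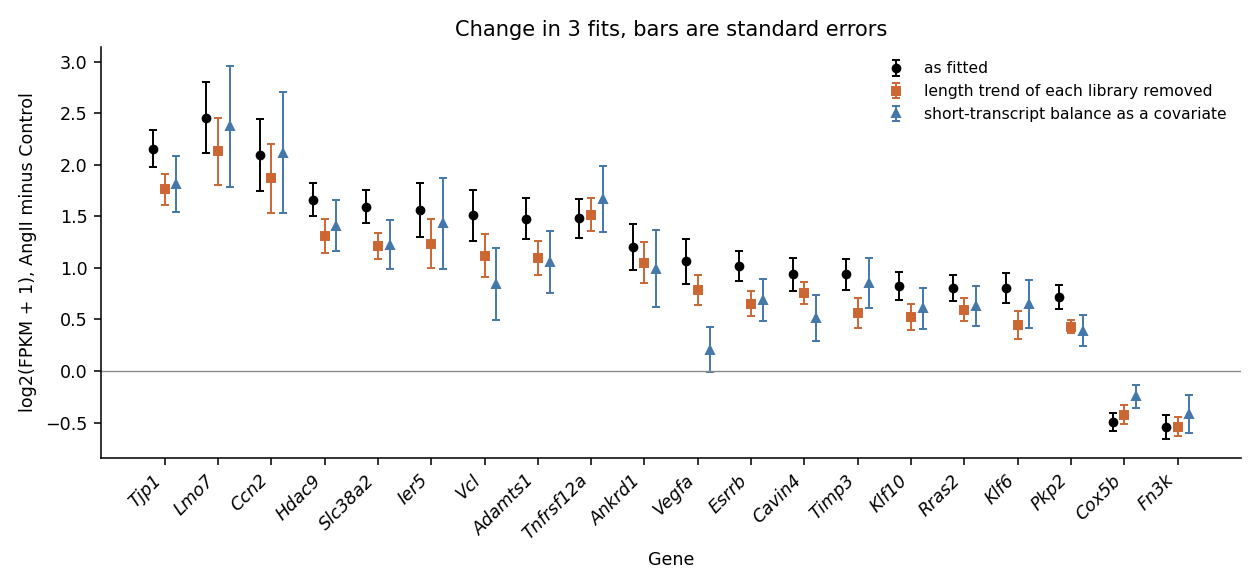
Log2 difference AngII minus Control of named genes in 3 fits: as fitted in all libraries (circles), after removal of the length trend (squares), and with the length balance as a covariate (triangles); bars are SE. Tnfrsf12a and Ccn2 keep their size with the covariate (1.67 and 2.12), and Vegfa shrinks from 1.06 to 0.21.

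Few genes fell in all fits. Cox5b, a nuclear subunit of cytochrome c oxidase, had 918, 862, 1079, 799 and 1044 FPKM in Control and 678, 636, 702, 604 and 700.1 in AngII. Each AngII library was below each Control library, and AngII stood at 70.6% of the Control mean. Cox5b differed by -0.49 ± 0.09 (adjusted p = 0.00934) on the log2 scale, with an adjusted p of 0.0459 without Control 3 and Control 5 and 0.0310 with the length trend removed. Fn3k (ENSMUSG00000025175, chr11:121434913-121450491), a kinase that removes sugar adducts from glycated proteins, had 21.5, 25, 26.1, 24.5 and 19.6 FPKM in Control and 16.9, 14.6, 16.6, 15.9 and 14.2 in AngII, again without overlap. Its log2 difference was -0.54 ± 0.12 (adjusted p = 0.0157), and -0.42 ± 0.18 with the covariate. The other 2 genes that fell in all fits, Gm13341 and Gm15543, are predicted models. Of the genes with the largest falls outside this set, Fkbp2, a prolyl isomerase of the endoplasmic reticulum, had 21.9, 26.6, 22.4, 17 and 33.9 FPKM in Control and 7.95, 7.36, 13.7, 10.8 and 10.3 in AngII (log2 difference -1.20 ± 0.23, adjusted p = 0.0123). Chac1, a stress gene that degrades glutathione, had 2.52, 2.40, 2.45, 2.21 and 2.47 FPKM in Control and 1.46, 1.42, 0.960, 1.54 and 0.71 in AngII, without overlap (log2 difference -0.64 ± 0.18, adjusted p = 0.0358). Leaving out any single library other than Control 4 ended the call of Chac1, as did removal of the length trend. Rarres2, the adipokine chemerin, fell from 51.2 ± 8.40 to 32.9 ± 4.76 FPKM (SD, n = 5) and Cox7a1, the muscle isoform of a cytochrome oxidase subunit, from 2850.5 ± 646 to 1854 ± 137 FPKM. The fall of Cox7a1 moved with the balance, and its log2 difference of -0.59 was -0.04 ± 0.13 with the covariate. Rps13-ps4, Rps6-ps3, Rpl36-ps12 and Gstp-ps, also among the 10 largest falls, are pseudogenes whose reads could be shared with their parent genes, and the copies Cox6c2 and Rpl37rt are uncertain for the same reason.

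Several of the largest rises rested on Control libraries at 0. Sptb, beta spectrin of the erythrocyte and muscle membrane skeleton, was listed at 0 in all 5 Control libraries and had 9.22, 9.30, 8.21, 9.46 and 8.20 FPKM in AngII. These values came from transcript ENSMUST00000021458, whereas transcript ENSMUST00000166101, which is not listed in all files, had 0.00932 to 2.26 FPKM in Control and at most 0.282 in AngII. Over all named transcripts the log2 difference of Sptb was 2.27 (adjusted p = 0.00307). Gtf3c4, a subunit of the RNA polymerase III factor TFIIIC, was listed at 0 in all Control libraries and had 2.18, 2.22, 1.93, 2.19 and 2.87 FPKM in AngII. Its transcript ENSMUST00000171404, also not listed in all files, showed the reverse, with 0.622 to 2.01 FPKM in Control and at most 0.0127 in AngII. Over all named transcripts the difference of Gtf3c4 was 0.53 (adjusted p = 0.0439). For Gtf3c4 the listed FPKM thus passed from 1 transcript to the other between the groups. For Sptb, transcript ENSMUST00000166101 was at most 0.0866 FPKM in Control 2, Control 3 and Control 5. The rise of each gene as a whole was smaller, and whether the transcripts or their estimates changed was not tested. Asxl2, which encodes a Polycomb-associated protein, was listed at 0 in all Control libraries and had 0.950, 1.20, 0.493, 0.426 and 0.872 FPKM in AngII. These values came from transcript ENSMUST00000152196, annotated as a processed transcript and not as protein coding. No protein-coding transcript of Asxl2 was listed in the Control and AngII files, so the values do not cover the coding message.

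Flnc, filamin C of the Z-disc, had 0, 24.6, 0.295, 27.6 and 0 FPKM in Control and 35.3, 41.9, 40.1, 43.5 and 48.7 in AngII. The low Control libraries 1, 3 and 5 carried 22.7, 8.53 and 7.57 FPKM of another transcript, ENSMUST00000065090, which stayed at or below 0.556 FPKM in AngII. Over all named transcripts the log2 difference of Flnc was 1.32 (adjusted p = 0.0189) in place of 3.44. Leaving out Control 3 or Control 5, or AngII 2, 4 or 5, ended the call of Flnc. Carns1, which makes carnosine from histidine and beta-alanine, was at or below 0.0114 FPKM in Control and had 7.37, 6.05, 5.67, 5.91 and 1.90 FPKM in AngII (log2 difference 2.59 ± 0.53, adjusted p = 0.0147), but lost the call without Control 3 and Control 5 (adjusted p = 0.0643). Btnl9, an endothelial butyrophilin, had 0.00578, 0.08, 0.0673, 6.57 and 0 FPKM in Control, with Control 4 apart from the rest, and 8.02 to 11 in AngII. Bms1, a GTPase of small ribosomal subunit assembly, was at 0 in 3 Control libraries and at most 0.960 FPKM in the others, against 2.81 to 5.00 in AngII (log2 difference 2.05 ± 0.21, adjusted p = 0.000132). Of 76 called genes with a log2 difference of at least 1.5 in either direction, 9 did not pass over all named transcripts.

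Gene lists were read by the number of tested members that passed, beside 12.1% of all tested genes higher, 1.43% lower and the overall median of 0.21. Of the 119 called genes named in the text, 50 belonged to the set that passed in all fits. Of the other 69, 2 passed without Control 3 and Control 5, and between 24 (without AngII 2) and 67 (without Control 4) passed with 1 library left out. A range given with a list is the lowest and highest number of members that rose with 1 library left out. For each list without cell type markers the highest count came, alone or tied, without Control 4, and the lowest, alone or tied, without 1 of AngII 2, AngII 4 and AngII 5. In some lists a Control library gave the lowest count as well, such as Control 3 in the immediate early and natriuretic lists and Control 5 in the insulin list. Of 24 genes of AngII receptors and Gq coupling, 7 rose and 0 fell (median 0.35), and 0 passed without Control 3 and Control 5. Leaving out 1 library at a time left between 1 (without AngII 2 or AngII 5) and 8 (without Control 4), and the median was -0.03 with the balance as a covariate. Gnaq, the Gq alpha subunit, had 1.94, 2.16, 1.80, 2.52 and 1.6 FPKM in Control and 2.83, 3.87, 3.02, 3.28 and 4.44 in AngII (log2 difference 0.57 ± 0.14, adjusted p = 0.0219). Ace, which makes AngII, had 10.4, 13, 7.30, 10.3 and 6.37 FPKM in Control and 13.4, 11.9, 13.7, 15.8 and 23.4 in AngII, overlapping through AngII 2 (log2 difference 0.67 ± 0.19, adjusted p = 0.0370). The AT1 receptor gene Agtr1a did not pass, with 10.2, 10.1, 9.58, 11.4 and 0.176 FPKM in Control, where Control 5 stood apart, and 9.44 to 12.3 in AngII. Rgs5, which limits Gq signalling in pericytes, rose from 94.3 ± 21.4 to 141 ± 24.6 FPKM.

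Of 29 MAP kinase genes 10 rose and 0 fell (median 0.47), and 1 passed without Control 3 and Control 5, Map3k3, which rose from 4.2 ± 1.71 to 8.40 ± 0.994 FPKM (SD, n = 5). The count went from 1 to 13 with single libraries left out. Of 21 genes of calcineurin, NFAT, class IIa histone deacetylases and MEF2, 4 rose and 0 fell (median 0.47): Hdac9, Camk2d, Ppp3r1 and Rcan1. The range was 2 to 6, 1 passed without Control 3 and Control 5, and the median was -0.03 with the covariate. Rcan1, a calcineurin target and inhibitor, had 38.8, 27.2, 21.9, 31.5 and 12.7 FPKM in Control and 44.5, 43.6, 33.8, 53.8 and 91.4 in AngII, with AngII 3 below Control 1 (log2 difference 0.99 ± 0.27, adjusted p = 0.0321). All 21 immediate early genes tested had a positive difference, 8 of them rose (median 0.68, range 3 to 9), and 3 passed without Control 3 and Control 5. Atf3, a stress-induced member, ranged furthest, with 0, 1.37, 3.56, 1.99 and 0.692 FPKM in Control and 14.8, 3.72, 3.04, 9.33 and 32.9 in AngII, where AngII 1, 4 and 5 were high and AngII 2 and 3 near the top of Control (log2 difference 2.18 ± 0.68, adjusted p = 0.0464). Btg2, an antiproliferative member, had 21.5, 9.73, 11.7, 17 and 38.3 FPKM in AngII against 5.08 to 9.09 in Control (log2 difference 1.13 ± 0.32, adjusted p = 0.0336).

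Of 23 YAP and TEAD targets and partners 7 rose and 0 fell (median 0.58), between 4 and 8 with single libraries left out, and 1 (Ccn2) without Control 3 and Control 5. Ankrd1, the stretch-induced Z-disc protein whose promoter is printed above, had 487, 362, 370.2, 304 and 222 FPKM in Control and 513, 791, 803, 890.0 and 989.6 in AngII. AngII 1 was close to Control 1 and the groups did not overlap. On the log2 scale Ankrd1 differed by 1.20 ± 0.22 (adjusted p = 0.0105). It passed with the length trend removed (1.05, adjusted p = 0.0182), and the adjusted p was 0.0508 without Control 3 and Control 5. Lats2, the Hippo kinase, had 2.63, 2.41, 2.80, 3.03 and 2.72 FPKM in Control and 5.64, 5.59, 4.41, 5.46 and 7.54 in AngII (log2 difference 0.84 ± 0.17, adjusted p = 0.0128). Of 25 SRF and MRTF targets 7 rose and 0 fell (median 0.40), with a range of 2 to 12. Acta1, skeletal alpha-actin, had 231, 217, 156, 201 and 121 FPKM in Control and 371, 241, 358, 614 and 1003 in AngII, with AngII 2 only just above Control 1 and AngII 5 highest (log2 difference 1.33 ± 0.41, adjusted p = 0.0446).

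Of 19 stretch-responsive cardiomyocyte genes 5 rose (Ankrd1, Ankrd23, Xirp1, Xirp2 and Cavin4, median 0.58), and of 14 genes of the natriuretic and fetal programme 5 rose (median 0.52), with 0 falling in either list. The ranges were 4 to 6 and 1 to 6, and 1 (Cavin4) and 0 passed without Control 3 and Control 5. Ankrd23, a titin-binding relative of Ankrd1, had 205, 189, 142, 204 and 122 FPKM in Control and 311, 369, 316, 383 and 494 in AngII (log2 difference 1.12 ± 0.20, adjusted p = 0.00882). Xirp2, an actin-binding protein of the intercalated disc, had 16.5, 16.1, 13.6, 20 and 11.6 and 24.2, 24.1, 28.8, 32.3 and 23.9 FPKM (log2 difference 0.75 ± 0.19, adjusted p = 0.0242). Of the markers that define the fetal list, Acta1 passed, as given above, while Nppa, Nppb and Myh7 were below the threshold for a call. Nppa, which encodes atrial natriuretic peptide, had 465, 331, 315, 205 and 170.4 FPKM in Control and 262, 443, 410.3, 507 and 771 in AngII, overlapping (log2 difference 0.69 ± 0.31, adjusted p = 0.142). Nppb, the brain natriuretic peptide, had 436, 218, 353, 229 and 233 and 186, 82.6, 420.0, 776 and 835 FPKM, with AngII 4 and AngII 5 above and AngII 1 and AngII 2 below all Control libraries (log2 difference 0.25 ± 0.73, adjusted p = 0.844). Myh7, the slow myosin heavy chain, ranged from 15.7 to 73.5 FPKM in Control and from 60 to 119 in AngII (log2 difference 1.03 ± 0.37, adjusted p = 0.0765), and Myh6, the fast form of the adult mouse heart, from 3146 to 7122 and from 3292 to 4315 FPKM (log2 difference -0.25 ± 0.28, adjusted p = 0.560).

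The list with the most rises was that of the intercalated disc, costamere and membrane scaffold, where 21 of 45 tested genes rose, 0 fell and 42 had a positive difference (median 0.64, the overall median being 0.21). Between 7 and 24 rose with single libraries left out, 6 without Control 3 and Control 5, and 6 with the length trend removed (Tjp1, Lmo7, Vcl, Pkp2, Sptb and Slmap). Its median was 0.03 with the balance as a covariate. Of 34 sarcomere, Z-disc and M-band genes 3 rose and 0 fell (median 0.36): Flnc, Lmod2 and Lmod3. The range was 1 to 10, 0 passed without Control 3 and Control 5, and the median was -0.11 with the covariate. Lmod2, a leiomodin that elongates thin filaments, had 136, 133, 132, 172 and 95.2 FPKM in Control and 274, 219, 189, 275 and 249.5 in AngII, without overlap (log2 difference 0.86 ± 0.18, adjusted p = 0.0157). In the calcium cycling list 5 of 29 rose and 1 fell (median 0.26, range 2 to 5), and the median was -0.07 with the length trend removed. Its members Ryr2, the calcium release channel, and Camk2d had log2 differences of 1.00 ± 0.24 (adjusted p = 0.0220) and 1.84 ± 0.32 (adjusted p = 0.00860), and that of Ryr2 was 0.03 ± 0.22 with the covariate. Neither gene passed without Control 3 and Control 5. Part of the Camk2d sum came from retained intron and nonsense-mediated decay transcripts. Its coding transcript ENSMUST00000106402, not listed in all files and so left out, had 0.0131 to 2.97 FPKM in Control and at most 0.0489 in AngII. Of 31 channel genes 4 rose and 1 fell (median 0.32, range 2 to 7), and the median was -0.26 with the covariate and -0.01 with the length trend removed. Among those that rose was Kcna5, the Kv1.5 channel, with 7.40, 10.4, 6.64, 9.88 and 8.06 FPKM in Control and 13, 13, 14.3, 15.3 and 21.9 in AngII (log2 difference 0.79 ± 0.16, adjusted p = 0.0128).

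**Figure D5:**
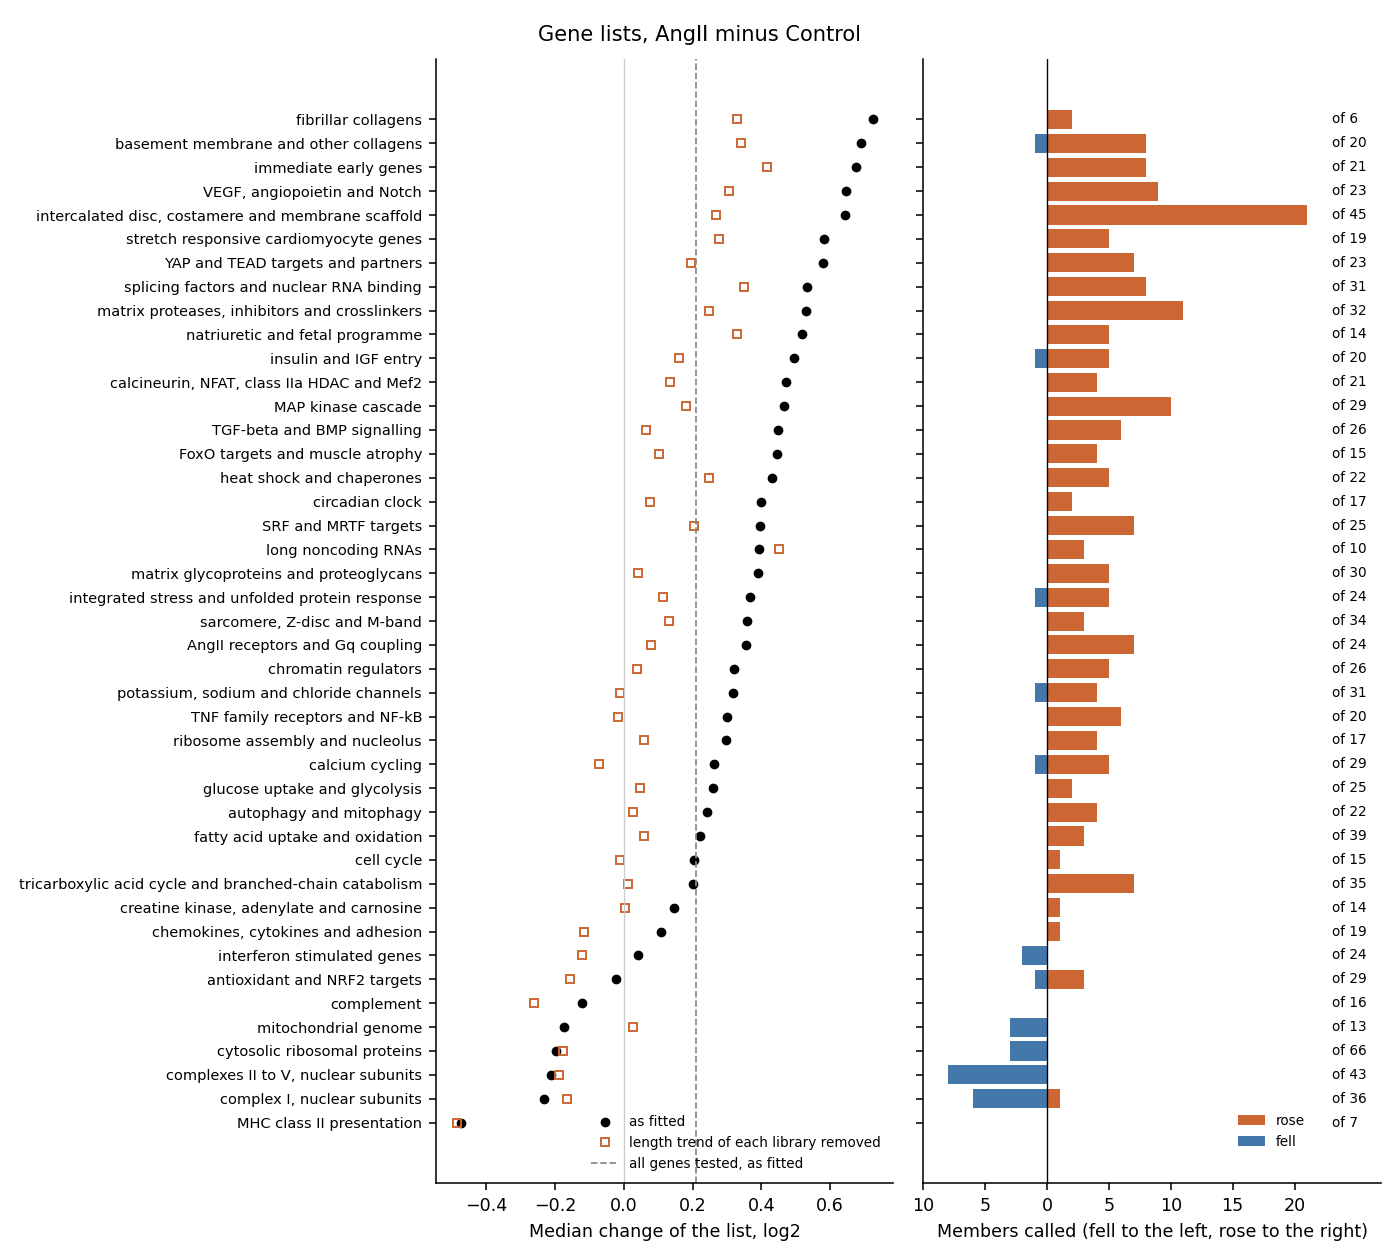
Median log2 difference AngII minus Control of each gene list and the number of its tested members that rose and fell. On the left, circles are as fitted, squares are after removal of the length trend, and the dashed line is the median of all genes as fitted. The scaffold list (21 of 45, median 0.64) and the matrix and angiogenic lists lie above that line (0.21) as fitted, and the respiratory chain and ribosomal protein lists lie below 0.

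In the matrix, 11 of 32 proteases, inhibitors and crosslinking enzymes rose and 0 fell (median 0.53), and between 5 and 12 rose with single libraries left out. Timp3, Adam10 and Adamts1 passed in all fits. Of 20 basement membrane and other collagen genes 8 rose and 1 fell (median 0.69), but 0 passed without Control 3 and Control 5 and between 1 and 11 rose with single libraries left out. Their median was -0.09 with the covariate, and 0 passed with the length trend removed. Col4a1 had 43.8, 41.0, 19.4, 49.0 and 25.1 FPKM in Control, where Control 3 and Control 5 were lowest, and 65.5, 54.7, 52.4, 72.3 and 102 in AngII (log2 difference 0.98 ± 0.26, adjusted p = 0.0304). Of 6 fibrillar collagens 2 rose (median 0.72, range 1 to 2), but 0 passed without Control 3 and Control 5 or with the length trend removed, and the median was -0.14 with the covariate. Col5a2, a regulator of fibril diameter, had 2.95, 2.82, 1.77, 2.72 and 1.45 and 4.42, 4.63, 3.63, 5.51 and 8.59 FPKM (log2 difference 0.91 ± 0.21, adjusted p = 0.0192). Of 30 matrix glycoproteins and proteoglycans 5 rose and 0 fell (median 0.39, range 2 to 5), among them Mfap5, a microfibril protein, with 14.6, 17.1, 5.50, 12.5 and 13.6 FPKM in Control and 19.6, 19.3, 20, 22.6 and 40.2 in AngII (log2 difference 0.91 ± 0.26, adjusted p = 0.0358). Postn, a matricellular marker of activated fibroblasts, had 6.43, 3.64, 1.24, 3.67 and 1.07 FPKM in Control and 6.32, 9, 5.16, 10.2 and 19 in AngII, where AngII 3 was below Control 1 (log2 difference 1.42 ± 0.39, adjusted p = 0.0319). Of 26 TGF-beta and BMP signalling genes 6 rose and 0 fell (median 0.45, range 1 to 10), and 0 passed without Control 3 and Control 5. Their receptor Tgfbr2 had 3.97, 3.62, 3.12, 4.11 and 2.67 FPKM in Control and 5.52, 4.93, 4.47, 5.42 and 8.26 in AngII (log2 difference 0.57 ± 0.16, adjusted p = 0.0370).

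Of 23 genes of VEGF, angiopoietin and Notch signalling 9 rose and 0 fell (median 0.65), between 5 and 12 with single libraries left out and 2 without Control 3 and Control 5. Flt1, VEGF receptor 1, had 9.57, 13.8, 9.01, 13.2 and 9.07 FPKM in Control and 16.8, 16.8, 17.6, 19.3 and 23.2 in AngII (log2 difference 0.74 ± 0.16, adjusted p = 0.0155). Nrp2, a coreceptor, had 3.70, 2.69, 1.62, 3.08 and 1.5 and 6.88, 4.56, 4.25, 6.16 and 10.7 FPKM (log2 difference 1.07 ± 0.23, adjusted p = 0.0151), and Notch1 2.10, 3.20, 1.42, 3.20 and 1.39 and 3.91, 3.67, 4.12, 4.23 and 5.53 FPKM (log2 difference 0.73 ± 0.19, adjusted p = 0.0283). All 3 were without overlap and higher in AngII. Of 20 insulin and IGF entry genes 5 rose and 1 fell (median 0.50, range 1 to 9), and 1 passed without Control 3 and Control 5. Irs2, an insulin receptor substrate, rose from 0.525 ± 0.226 to 1.23 ± 0.424 FPKM (SD, n = 5). Insr, the insulin receptor, was the gene that fell, with 3.90, 3.24, 3.54, 3.58 and 3.37 FPKM in Control and 5.82, 0.22, 0.0240, 0.294 and 0.289 in AngII. AngII 1 was above all Control libraries and the other 4 AngII libraries far below them, and the log2 difference was -1.41 ± 0.38 (adjusted p = 0.0314). Without Control 3 and Control 5 the adjusted p of Insr was 0.122.

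Stress responses were mixed. Of 22 heat shock and chaperone genes 5 rose and 0 fell (median 0.43), between 3 and 7 with single libraries left out. Hsp90aa1, the inducible HSP90, had 15.5, 13, 17.6, 17.3 and 16.9 FPKM in Control and 25, 23, 26, 29.0 and 35.6 in AngII (log2 difference 0.74 ± 0.15, adjusted p = 0.0128), and Hspa8, the constitutive HSC70, had 269, 316, 329.8, 318 and 287 and 343, 399.8, 451, 487 and 548 FPKM (log2 difference 0.54 ± 0.11, adjusted p = 0.0151). Both were without overlap and higher in AngII. Of 24 genes of the integrated stress and unfolded protein responses 5 rose and 1, Chac1, fell (median 0.37, range 1 to 5). With single libraries left out, Chac1 passed only without Control 4. Of 29 antioxidant and NRF2 target genes 3 rose and 1 fell (median -0.02, below the overall 0.21, range 1 to 4). Hmox1, heme oxygenase 1, had 4.38, 5.33, 3.49, 3.52 and 1.15 FPKM in Control and 7.21, 9.49, 6.54, 16.5 and 6.75 in AngII, with AngII 4 highest (log2 difference 1.18 ± 0.27, adjusted p = 0.0199). Txnip, which binds thioredoxin and limits glucose uptake, had 59.6, 75.0, 38.9, 92.4 and 45.7 and 187, 133, 149, 97.4 and 109 FPKM (log2 difference 1.13 ± 0.24, adjusted p = 0.0156), and Gpx4, the lipid peroxidase, fell from 755 ± 53.3 to 611 ± 51.7 FPKM.

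Genes of energy metabolism went both ways. Of 36 nuclear complex I subunits 1 rose and 6 fell (median -0.23), and of 43 nuclear subunits of complexes II to V 0 rose and 8 fell (median -0.21). Of all genes 1.43% were lower, but of genes of 500 to 1000 nt 6.82% were. The median transcript lengths of these lists, 792 and 720 nt, lie in that range. Between 0 and 13 and between 1 and 12 of these lists fell with single libraries left out, 0 and 1 (Cox5b) without Control 3 and Control 5, and 2 and 2 with the length trend removed. Their medians were 0.04 and 0.06 with the balance as a covariate. Ndufb7 had 572, 717, 862, 609 and 776 FPKM in Control and 537, 487, 514, 456 and 564 in AngII (log2 difference -0.45 ± 0.11, adjusted p = 0.0239, and -0.35, adjusted p = 0.0373, with the length trend removed). Ndufs1, the largest subunit and the member that rose, had 30.8, 106, 56.5, 64.7 and 111 and 200.02, 163, 178, 154 and 81.8 FPKM, with AngII 5 inside the Control range (log2 difference 1.15 ± 0.31, adjusted p = 0.0302). Of 13 genes of the mitochondrial genome 0 rose and 3 fell (median -0.17), with 6 positive and 7 negative differences. Between 0 and 3 fell with single libraries left out, and 0 passed without Control 3 and Control 5 or with the length trend removed. Their median was 0.05 with the covariate. The mitochondrial genome held 30.05% of FPKM in Control and 29.63% in AngII (exact permutation p = 0.857). Of 35 citric acid cycle and branched-chain amino acid genes 7 rose and 0 fell (median 0.20, range 1 to 14), but 0 passed without Control 3 and Control 5 and 0 rose with the length trend removed. Those that rose included Dld, the shared dehydrogenase subunit, with 102, 98.3, 131, 132 and 101 FPKM in Control and 145, 176, 143, 148 and 152 in AngII (log2 difference 0.44 ± 0.11, adjusted p = 0.0219). Pdk4, which shuts pyruvate dehydrogenase, had 15.3, 17.7, 18.6, 38.6 and 9.57 and 38.8, 42.9, 32.5, 40.9 and 57.1 FPKM, with Control 4 inside the AngII range (log2 difference 1.17 ± 0.29, adjusted p = 0.0256). Of 39 fatty acid genes 3 rose (Acadl, Ppargc1b and Esrrb) and of 25 genes of glucose uptake and glycolysis 2 rose (Pfkp and Pgam1), with 0 falling in either list. The ranges were 1 to 9 and 0 to 5, and 1 and 0 passed without Control 3 and Control 5. The median of the glucose list, 0.26, was -0.19 with the covariate.

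In RNA handling, 8 of 31 splicing factors rose and 0 fell (median 0.53), between 1 and 12 with single libraries left out and 0 without Control 3 and Control 5. Srsf5 had 6.79, 5.85, 5.18, 8.45 and 3.52 FPKM in Control and 10.9, 11.4, 9.88, 10.6 and 9.23 in AngII and passed with the length trend removed (log2 difference 0.75 ± 0.17, adjusted p = 0.0189, and 0.65, adjusted p = 0.0331). Of 66 cytosolic ribosomal proteins 0 rose and 3 fell (median -0.20). Between 0 and 16 (without Control 4) fell with single libraries left out, 0 passed without Control 3 and Control 5 or with the length trend removed, and the median was 0.14 with the balance as a covariate. Of 17 genes of ribosome assembly 4 rose and 0 fell (median 0.30, range 3 to 6), with Ddx21, a nucleolar helicase, at 3.49, 3.33, 3.51, 4.52 and 2.44 FPKM in Control and 5.86, 6.68, 4.55, 6.28 and 7.07 in AngII (log2 difference 0.67 ± 0.14, adjusted p = 0.0147). Immune lists gave few calls. Of 7 genes of MHC class II presentation 0 passed (median -0.47). H2-Ab1 had 77.1, 33.3, 40.1, 24.3 and 33.7 FPKM in Control and 25.5, 15.3, 20.8, 19.1 and 43.6 in AngII, with Control 1 apart from the other Control libraries (log2 difference -0.70 ± 0.30, adjusted p = 0.125). Of 24 interferon-stimulated genes 0 rose and 2 fell, and of 16 complement genes 0 passed. Of 19 chemokine, cytokine and adhesion genes 1 rose: Osmr, the oncostatin M receptor, with 2.07, 2.25, 1.99, 2.21 and 1.52 and 2.92, 2.78, 2.95, 2.85 and 3.79 FPKM, without overlap (log2 difference 0.43 ± 0.13, adjusted p = 0.0455).

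Markers of the cells in the heart were read as summed FPKM per library. In bulk tissue, fewer cells of a type and less RNA per cell cannot be told apart. Cardiomyocyte markers, present at high level in all libraries, summed to 25929.6 to 34768 FPKM in Control and 26903 to 30412 in AngII; 1 of 11 tested rose (Ryr2) and 1 fell (Cox6a2). Fibroblast markers summed to 522 to 808 FPKM in Control and 726 to 1064 in AngII, and 2 of 13 rose (Mfap5 and Ddr2, range 0 to 3). Activated fibroblast markers summed to 40.5 to 90.5 FPKM in Control and 85.8 to 169 in AngII, and 2 of 10 rose (Postn and Ddah1, range 0 to 3). Endothelial markers summed to 672 to 1007 FPKM in Control and 819 to 1157 in AngII, and 1 of 14 rose (Btnl9, range 1 to 5). Smooth muscle and pericyte markers summed to 671 to 1069.9 FPKM in Control and 432 to 1074 in AngII, with medians of 797 and 505 FPKM. Of 13 members 2 rose (Rgs5 and Notch3, range 0 to 3) and 5 had a negative difference, and the median of 0.26 was -0.10 with the covariate and -0.14 with the length trend removed. Macrophage markers summed to 218 to 394 FPKM in Control and 227 to 403 in AngII, with medians of 309 and 274 FPKM. Of 12 members 3 rose (Cd163, Lyve1 and F13a1, range 0 without AngII 2 or AngII 5 to 3) and 6 had a negative difference (median 0.03, below the overall 0.21). Of the fibroblast, activated fibroblast, smooth muscle and macrophage lists 0 members passed without Control 3 and Control 5 or with the length trend removed. Cd163 had 3.09, 3.19, 3.40, 3.70 and 1.48 FPKM in Control and 5.09, 6.10, 5.14, 4.29 and 6.15 in AngII, without overlap (log2 difference 0.70 ± 0.19, adjusted p = 0.0286). Atrial markers summed to 172 to 477 FPKM in Control and 268 to 777 in AngII and red blood cell markers to 3807 to 12244 FPKM in Control and 2206 to 9342 in AngII, with 0 members passing in either list. The lists of lymphocytes, neutrophils, adipocytes, epicardial cells and Schwann cells summed to at most 35.3 FPKM in any library, with 0 members passing. The ranges of the groups overlapped in each of these sums. The part of cell composition in the gene differences was not tested.

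Some genes moved against the length trend. Of the 175 genes that fell, 7 had transcripts of at least 2000 nt: Insr, Armc8, Fndc10, Phtf2, Trabd2b, Pogk and the model Gm38056, of a type still to be verified by experiment. Armc8, of the CTLH ubiquitin ligase, had 2.92, 2.52, 3.18, 1.40 and 2.02 FPKM in Control and 1.52, 0.762, 0.649, 0.400 and 0.744 in AngII, with AngII 1 inside the Control range (log2 difference -0.91 ± 0.19, adjusted p = 0.0143, and -1.28, adjusted p = 0.0154, with the trend removed). Fndc10, a membrane protein with a fibronectin domain, had 1.36, 1.35, 1.00, 1.09 and 0.654 and 0.264, 0.679, 0.494, 0.514 and 0.608 FPKM, overlapping through Control 5 and AngII 2 (log2 difference -0.46 ± 0.12, adjusted p = 0.0264). Fndc10 also passed without Control 3 and Control 5 (adjusted p = 0.0459), but not in the 10 libraries alone or without Control 2, AngII 1 or AngII 4. Pogk, a transposase-derived zinc finger protein, had 0.892, 1.12, 0.717, 1.57 and 1.00 and 0.663, 0.350, 0.651, 0.551 and 0.247 FPKM, without overlap (log2 difference -0.46 ± 0.14, adjusted p = 0.0427). Neither Armc8 nor Pogk passed without Control 3 and Control 5 (adjusted p = 0.0614 and 0.081), and Pogk did not pass in the 10 libraries alone. Rises among genes under 1000 nt were fewer, 53 of 1830 tested, and Tnfrsf12a, described above, was one of them.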

How the data were processed

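RNA of 15 mouse hearts, 5 per group, was sequenced after depletion of ribosomal RNA, per the labels' protocols. The authors deposited 1 table of transcript values per library, read here as FPKM; the unit was inferred from the values, since the headers do not state it. The submitters' processing notes name GRCm38 and limma, while for the aligner and quantifier no name is given in the sources used here. Control and AngII files list 31685 transcripts and AngII+QDG files 31734. The 22463 transcripts with a name in GENCODE M21 (GRCm38) in all 15 files were summed per gene. FPKM times length lay on whole multiples of a step per library (96.9 to 97.2% of values within 0.1), and the number of steps was taken as the depth.

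Values were taken as log2(FPKM + 1) and fitted in limma 3.58.1 under R 4.3.3 (intensity trend, robust variance, all 15 libraries, 12 residual degrees of freedom, contrast AngII minus Control) with Benjamini-Hochberg adjustment over 12238 genes at 0.05. The length of a gene is the mean length of its transcripts weighted by their mean FPKM. For library measures the test was an exact two-sided permutation of the group labels. The procedure was tested on simulated data. The limma p-values set each difference against the spread within groups, estimated from all groups including AngII+QDG. The labels do not say how animals were assigned, and the p-values do not account for that.

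Named genes were the 10 largest rises and 10 largest falls among called genes of at least 1 FPKM without overlap between groups, not counting gene models known only by prediction or clone, the 25 with the smallest p among those called in all fits, up to 4 members per list and each list's defining members, and some others chosen after their values were seen. Not every gene that met the rule is named. Members and lists were chosen with earlier results of these data known. Alternatives covered the pseudocount, filter, scaling, libraries, replicate block, weights, length, transcripts and voom. Other steps used Python 3.11.15, pandas 2.3.3, numpy 2.4.6, scipy 1.17.1 and matplotlib 3.10.9.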

Additional observations from a re-analysis of the deposited data

Results flagged for a closer look

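In 260 groups of 5 libraries (125 named genes and 5 library measures in each of 2 groups), 19 held a library whose gap to the nearest other library exceeded the limit for its group's range, and chance flags about 1 in 20 groups. In Control, library 5 was low for Agtr1a (0.176 FPKM, group median 10.1), Cd163 (1.48 FPKM) and Lmod3 (17.4 FPKM). Control 4 was high for Btnl9 (6.57 FPKM, group median 0.0673), Hdac9 (0.127 FPKM) and Slc38a2 (17.4 FPKM), Control 2 for Slmap (6.62 FPKM, group median 0.146) and, at a value near 0, for Carns1 (0.0114 FPKM).

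In AngII, library 5 was high for Kcna5 (21.9 FPKM), Mfap5 (40.2 FPKM, group median 20.04), Osmr (3.79 FPKM), Rgs5 (184 FPKM) and Tgfbr2 (8.26 FPKM). The same library was low in the share of FPKM from the mitochondrial genome (26.1%, group median 30.5%) and from the top 50 genes (56.6%). AngII 1 was high for Insr (5.82 FPKM, group median 0.289), AngII 2 for Dld (176 FPKM), and low values were those of Vegfa in AngII 3 (44.6 FPKM) and of the pseudogene Gstp-ps in AngII 4 (10.5 FPKM). Outside the gene table, 6902 transcripts assembled by the authors without a gene name and listed in all 15 files were tested. Of these, 135 were called higher in AngII and 14 lower.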

How the results depend on the processing

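Against 1658 genes called, 1539 to 1760 were called, 1351 (sample weights) to 1642 (no filter) of them among the 1658, with another pseudocount (0.1 or 0.5), no filter or a filter at 1 FPKM, sample weights, no trend, all named transcripts, genes at 0 left out, and voom on recovered fragments. Calls (higher and lower) were 851 (407 and 444) with quantile normalization, 1171 (358 and 813) with median scaling, 359 (335 and 24) in the 10 libraries alone, 182 (169 and 13) without Control 3 and Control 5, 2 (2 and 0; 653 at an unadjusted p under 0.05) with the length balance as a covariate, 325 (198 and 127) with the length trend removed, and 2718 (2613 and 105) with mitochondrial genes left out. Leaving out 1 library gave 359 (without AngII 2) to 2538 (without Control 4) calls, 332 to 2273 higher and 27 to 265 lower. The median of all genes, 0.21, turned to -0.021 with quantile normalization, -0.065 with median scaling, -0.0077 with the covariate and -0.0045 with the length trend removed.

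The labels do not state whether replicate numbers pair the animals. Same-numbered libraries correlated at -0.062 to 0.027, and 0 of 5 Control libraries correlated best with their own number. Such correlations show no shared effect of the number but cannot show that the animals were unpaired. With the replicate block 556 genes were called (484 and 72).

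Without Control 3 and Control 5 the balance differed by -0.244 and the share at 0 by -3.56. With 1 library left out, depth differed by -3.71 to 1.73 (0.282 without AngII 3), the mitochondrial share by -1.96 to 0.957 (0.65 without Control 1, 0.473 without AngII 5), and the top 50 share by -5.81 (without Control 4, exact permutation p = 0.0159, adjusted 0.0265) to -2.47. Of 119 called genes named, 3 changed sign, with the covariate only: Col4a1 (-0.038), Cox6a2 (0.10) and Notch3 (-0.10). Among genes not called, Nppb turned to -0.03 with median scaling, -0.06 without AngII 4 and -0.084 without AngII 5 (0.75 without AngII 2), and Myh6 to 1.30 with voom. The cause was not tested.

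Depth limits genes of few fragments, and a value of 0 can be a failed estimate.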

Other observations

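At the level of single transcripts, 499 of 21573 tested named transcripts were called higher and 64 lower in AngII. Of 23497 named transcripts listed in the Control and AngII files, 12 were at or below 0.1 FPKM in all Control libraries and at or above 1 FPKM in all AngII libraries. The reverse was shown by 0 of them. Besides those of Sptb, Gtf3c4, Carns1, Lmo7 and Smarcc1, the 12 belonged to Acly, the citrate lyase that starts fatty acid synthesis (2.51 to 6.06 FPKM in AngII), Ccar1, a cell cycle and apoptosis regulator (4.57 to 5.11 FPKM), Kif3a, a kinesin motor of cilia (1.85 to 3.07 FPKM), Chst15, a sulfotransferase of chondroitin sulfate (1.16 to 2.70 FPKM), Ppip5k1, an inositol pyrophosphate kinase (1.08 to 2.92 FPKM), and Tstd2 (1.00 to 1.67 FPKM). The last was Srsf6, whose transcript ENSMUST00000017065 is annotated as a target of nonsense-mediated decay and had 1.13 to 12.1 FPKM in AngII and 0 in all Control libraries. Among 7508 transcripts assembled without a gene name and listed in all 15 files, 6 showed this pattern and 0 the reverse. Transcripts missing from the AngII+QDG files were not searched in that set, so it cannot show how often the reverse occurred. Control libraries also had the larger share of all transcripts at 0 (11.4% against 4.80%), and the part of that difference in this pattern was not tested.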
